A study of Danio rerio with 80 samples.

Results

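The 134 genes described here are those whose messenger RNA was lowest at 72 h post-fertilization (hpf) relative to 48 hpf in zebrafish embryos kept in the lowest concentration of benzo[a]pyrene (BaP) or of its methylated form 6-methylbenzo[a]pyrene, called 6-MBaP here. The genes were chosen by their levels in those embryos. Each library's counts were scaled to a library total of 1000000 (CPM), and the 8 libraries at 48 hpf and the 8 at 72 hpf of 6-MBaP 0.133 µM and BaP 0.133 µM were averaged. Of 32520 gene IDs, 6773 had a mean of at least 10 CPM at 48 hpf, and the 150 with the lowest log2 ratio of 72 hpf over 48 hpf (1 CPM added to each mean) were taken. Of these, 16 were left out by the start of their symbol (mcm, ccn, cdk, cdc, kif, aurk, hbbe, hbae or cts), and 134 remained. Those left out were cyclins, kinesins, globins, cathepsins and *cdkn1ca*. Since they were chosen by the levels in those 16 libraries, these levels are given as a description with no test. The last genes taken were *MARCKS* (ENSDARG00000008803) at a log2 ratio of −1.07, *ect2* at −1.07 and *mta2* at −1.06, and the next in line, *MYT1* (ENSDARG00000074030), *espl1* and *ccne2*, were all at −1.06.

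The assay (BRB-seq) counted messenger RNA by its 3′ ends in 80 libraries, each from a pool of 6 whole embryos of the 5D wild-type strain, with 4 pools, lettered A to D, in each of 20 groups. All embryos had their chorions removed before exposure and received DMSO, the solvent, alone (control) or with 8-methylbenzo[a]pyrene (8-MBaP), 6-MBaP or BaP at 0.133, 1.33 or 13.3 µM until collection at 48 or 72 hpf. BaP is a polycyclic aromatic hydrocarbon that binds the aryl hydrocarbon receptor (AHR), and the methylated compounds differ from BaP by a methyl group and from each other by its place on the rings. Each exposure was kept on 1 plate and the controls on 1 plate, living embryos were pooled whatever their shape, and the 4 pools with the most RNA were sequenced, so the errors below are those between pools of 1 plate, and a plate effect cannot be told apart from an exposure effect.

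Libraries held 4838752 to 8779891 counts (median 6467821), and their 10 most abundant genes held 17.4 to 26.7% of them. Markers of muscle, neurons, epidermis, lens, heart, liver and pancreas were present in whole embryos, for example *ckma* at 2789 to 5987 CPM and *elavl3* at 176 to 524 CPM over the 80 libraries. Some were low in places, with the liver marker *fabp10a* down to 0.828 CPM and the pancreas marker *prss1* down to 2.43 CPM. The markers *mylpfa* of muscle, *hbbe1.1* of red blood cells and *cpa5* of pancreas were not matched by symbol. The 134 genes took 1.49 to 1.86% of the counts of a library at 48 hpf and 0.534 to 0.668% at 72 hpf. In whole-embryo RNA, fewer cells of a type and less RNA per cell cannot be told apart.

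Between these ages the zebrafish embryo leaves the hatching period. Neuroepithelial progenitors, which divide and are held back from differentiating by Notch signaling between neighboring cells, give way to neurons. The hatching gland, a belt of cells on the yolk that secretes enzymes against the chorion, is used up, and red blood cells of the primitive wave mature. Transcripts of such passing cell states fall in development without any exposure, and the DMSO controls, which the choice of genes did not use, give the size of that fall.

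In control embryos 132 of the 134 genes were lower at 72 hpf than at 48 hpf by edgeR's quasi-likelihood test at an adjusted p of 0.05 or under, against 10.2% of all 19211 genes tested. The median log2 fold change of the genes was −1.28 (range −6.62 to −0.40), and that of all genes was 0.02. The exceptions were *slc29a2*, a nucleoside transporter, at −0.59 ± 0.28 (SE; adjusted p = 0.124, edgeR) and *ect2*, a cytokinesis factor, at −0.40 ± 0.22 (adjusted p = 0.201, edgeR). In 131 genes every control library at 72 hpf was below every control library at 48 hpf, which held for 9.96% of all genes in the same direction. The median gene kept 40.9% of its 48 hpf level at 72 hpf. In 110 genes less than 50% was left, in 23 less than 25% and in 5 less than 10%. Among these chosen genes, sorted by known role, the falls were deepest in cathepsin L-like genes, in *ACP5* and in hatching enzymes. They were shallowest in cell division, chromatin and RNA-binding genes. The choice kept only genes with a log2 ratio of −1.06 or lower. Role medians near that limit therefore do not rank whole roles. With 132 of the 134 genes called, nearly all genes of each role fell.

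**Figure D1:**
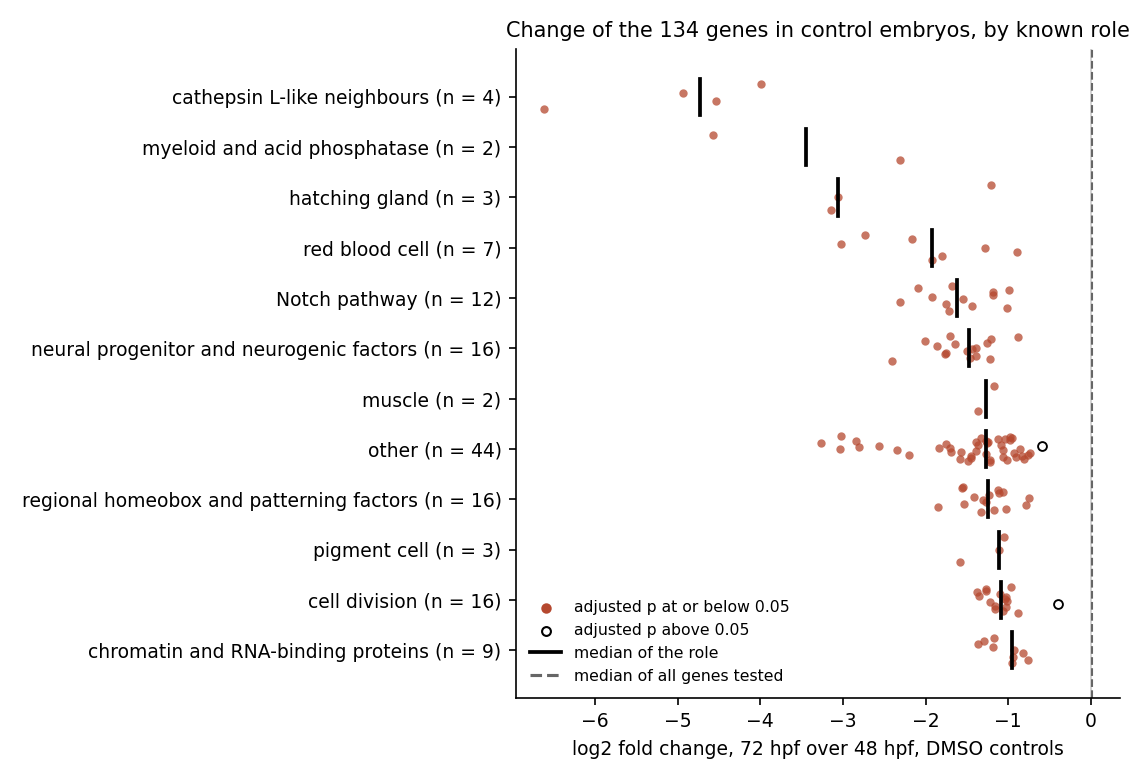
Log2 fold change of each of the 134 genes in DMSO control embryos, 72 hpf over 48 hpf, in rows by known role (n genes each, 4 pools per time). Filled points have an adjusted p at or under 0.05, open points are *ect2* and *slc29a2*, black bars are role medians and the dashed line is the median of all genes at 0.02; every point lies below it, and the cathepsin L-like row lies farthest to the left with a median of −4.73.

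The 4 cathepsin L-like genes fell the most as a group. Cathepsin L is a lysosomal cysteine protease, and RefSeq (GRCz12tu) gives these genes the synonym *ctsl* and places them close together on 1 chromosome, so reads may be shared between near copies and their separate values are uncertain. *zgc:174855* (ENSDARG00000094559) had 2.03, 0.136, 0 and 0.639 CPM in controls at 72 hpf, against 62.2, 77.3, 69.5 and 57.8 CPM at 48 hpf. This log2 fold change of −6.62 ± 0.45 (adjusted p = 1.21e-23, edgeR) was the largest of the 134 genes. Its neighbor *si:dkey-26g8.5* (ENSDARG00000089750) had 0.169, 0, 0.157 and 2.04 CPM at 72 hpf, against 23.6, 18, 22.5 and 17.4 CPM at 48 hpf. *si:dkey-269i1.4* (ENSDARG00000095744) had 1.35, 0.273, 0.157 and 5.49 CPM at 72 hpf, against 42.2, 43.1, 44 and 51.2 CPM at 48 hpf. *zgc:174154* (ENSDARG00000075527) had 0.169, 0.136, 1.41 and 3.32 CPM at 72 hpf, against 16, 40.7, 13.4 and 15.08 CPM at 48 hpf. No control library at 72 hpf reached any at 48 hpf in these genes, and pool D was the highest at 72 hpf in 3 of the 4. The log2 fold changes of the last 3 genes were −4.93 ± 0.50, −4.53 ± 0.36 and −3.99 ± 0.54, and without control pool D at 72 hpf they were −7.39, −6.28 and −5.20. That of *zgc:174855* ran from −7.81 to −6.25 over the leave-outs, and all these calls held.

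The hatching enzymes *he1.1* (ENSDARG00000023656) and *he1.2* (ENSDARG00000019122) are metalloproteases of the hatching gland that digest the chorion. They are neighbors in RefSeq and near copies, so reads may be shared between them. *he1.1* had 70.8, 8.87, 39.6 and 140 CPM in controls at 72 hpf, against 495, 441, 627 and 608 CPM at 48 hpf (log2 fold change −3.06 ± 0.37, adjusted p = 5.33e-11, edgeR, and −3.79 without control pool D at 72 hpf). *he1.2* had 63, 4.91, 29.6 and 54.7 CPM at 72 hpf, against 397, 338, 287 and 314 CPM at 48 hpf (−3.14 ± 0.38, adjusted p = 3.17e-11). In both genes every pool at 72 hpf lay below every pool at 48 hpf, and the 72 hpf control pools were spread widely, with pool B far below the other 3. *PRDM1* (ENSDARG00000002445), named for its human counterpart, encodes the repressor Blimp1 that zebrafish need to form the hatching gland. It had 8.45, 8.46, 5.8 and 10.5 CPM at 72 hpf, against 19.6, 18.7, 20.1 and 18.7 CPM at 48 hpf. Among 13 tested genes of a hatching gland list these 3 fell and 2 rose in controls, and the list's median was 0.13, so the fall did not extend over the list. Secretory genes of that list that are not among the 134 include *agr2*, at 120 CPM at 72 hpf against 105 CPM at 48 hpf (adjusted p = 0.347, edgeR).

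*ACP5* (ENSDARG00000019763) is the counterpart of the tartrate-resistant acid phosphatase of osteoclasts and macrophages. It had 3.04, 1.64, 5.48 and 3.07 CPM in controls at 72 hpf, against 66.7, 109, 44.9 and 91.2 CPM at 48 hpf, a log2 fold change of −4.58 ± 0.27 (adjusted p = 2.99e-27, edgeR). The highest pool at 72 hpf, at 5.48 CPM, was far below the lowest at 48 hpf, at 44.9 CPM. *lyz* (ENSDARG00000057789), the lysozyme gene of neutrophils and macrophages, had 22.1, 14.6, 27.1 and 23.4 CPM at 72 hpf, against 77.2, 146, 112 and 94.5 CPM at 48 hpf (−2.31 ± 0.19).

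All 7 red blood cell genes fell in controls, with a median log2 fold change of −1.92. *SLC4A1* (ENSDARG00000012881), the counterpart of the band 3 anion exchanger of the red cell membrane, had 3.21, 5.73, 4.54 and 4.47 CPM at 72 hpf, against 36.5, 42.1, 34.1 and 35.1 CPM at 48 hpf (−3.02 ± 0.24, adjusted p = 3.58e-19, edgeR). Another 3 IDs carried the name of the human embryonic globin *HBE1* and may share reads. The most abundant of them, ENSDARG00000087390, had 444, 429, 506 and 614 CPM at 72 hpf, against 1875, 2380, 2951 and 1736 CPM at 48 hpf (−2.17 ± 0.23), and the other 2 fell by 2.73 and 1.92 on the log2 scale. *alas2*, the erythroid enzyme that opens heme synthesis, fell by 1.80 ± 0.25, *cahz*, a red cell carbonic anhydrase, by 1.27 ± 0.17 and *nt5c2l1*, of the cytosolic nucleotidase family, by 0.89 ± 0.23. In a list of erythroid genes 7 fell and 1 rose of 27 tested, and 4 of those 7 are among the 134. *hemgn*, an erythroid nuclear factor that is not among the 134, was at 26.5 CPM at 72 hpf against 52.3 CPM at 48 hpf.

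All 12 Notch pathway genes fell, with a median log2 fold change of −1.62 (range −2.30 to −0.99). The ligands were *dlb*, both *DLL1* counterparts and *jag1a*, the receptors *notch3* and a *NOTCH1* counterpart, and the targets and regulators *NRARP*, *her4.2*, *her4.5*, *her15.2*, *HES6* and *lfng*, the glycosyltransferase that modifies the receptors. *dlb* (deltaB) had the largest fall, by 2.30 on the log2 scale. *notch3* (ENSDARG00000052139) had 39.4, 38.4, 45.3 and 35.6 CPM in controls at 72 hpf, against 98.1, 123, 121 and 120 CPM at 48 hpf (−1.55 ± 0.11, adjusted p = 6.68e-22, edgeR). The *NOTCH1* counterpart (ENSDARG00000103554) had 18.8, 13, 18 and 16.5 CPM at 72 hpf, against 39, 51, 48 and 40.7 CPM at 48 hpf. The pools of the 2 ages did not overlap in either receptor. Not every gene of the pathway fell. In a list of progenitor and Notch genes 28 of 48 tested were lower and 0 higher (median −0.76), and 11 genes of the list are among the 134. The ligand *dld*, which is not among the 134, was at 142 CPM at 72 hpf against 133 CPM at 48 hpf (adjusted p = 0.601, edgeR).

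All 16 neural progenitor and neurogenic factors fell, with a median of −1.48 (range −2.41 to −0.88). They were the SoxB1 progenitor factors *sox3* and *sox19a*, the SoxC factors *SOX11* and *sox12*, the proneural genes *neurog1*, *neurod4* and *ascl1a*, the progenitor filament gene *nes*, and *INSM1*, *scrt2*, *rcor2*, *ebf2*, *foxn4*, *pou3f1* and the 2 *GADD45G* counterparts. *SOX11* (ENSDARG00000095743) had 38.5, 44.1, 55.6 and 49.7 CPM at 72 hpf, against 138, 176, 145 and 155 CPM at 48 hpf (−1.71 ± 0.10, adjusted p = 2.33e-26, edgeR). *sox3* (ENSDARG00000053569) had 23.2, 19.7, 18.2 and 22 CPM at 72 hpf, against 55.1, 60.4, 53.1 and 56 CPM at 48 hpf (−1.44 ± 0.12). Neither gene had overlapping pools. *foxn4*, which acts in retinal and spinal progenitors, fell by 1.76 ± 0.16, and *neurod4* fell by 1.203 ± 0.14. The wider neurogenesis list held 22 lower and 1 higher of 35 tested genes (median −0.72).

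The 16 regional homeobox and patterning factors fell by a median of 1.25 on the log2 scale. Most are transcription factors that mark domains of the spinal cord, hindbrain, hypothalamus and eye, namely *DBX1* (2 IDs), *NKX6-1*, *NKX1-1*, *olig2*, *gsx1*, *gbx1*, *lhx5*, *PRDM12*, *OTP* (2 IDs), *zfhx3a*, *POU2F2*, *hoxc1a*, *OTX2* and *crx* (ENSDARG00000043483). Another *crx* ID (ENSDARG00000011989), not among the genes chosen, stayed level in controls, at 109 CPM at both ages (log2 fold change −0.0015, not called). *POU2F2* (ENSDARG00000036816) fell by 1.85 ± 0.21 and *hoxc1a* by 1.56 ± 0.23. *OTX2* (ENSDARG00000011235), a forebrain and eye factor, had 26.5, 31, 28.7 and 31.2 CPM at 72 hpf, against 63.7, 73.7, 67 and 60.5 CPM at 48 hpf (−1.17 ± 0.12). In the list of hox and cdx genes 21 of 50 tested fell and 2 rose (median −0.52), *HOXB3* among those that fell, with 62.3 CPM at 72 hpf against 120 CPM at 48 hpf.

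Cell division genes fell less than these, though cyclins, kinesins and *cdkn1ca* had been left out by their symbols. Of 16, 15 were called, all but *ect2*, and the median was −1.08. *mki67* (ENSDARG00000091150), the proliferation marker Ki-67, had 38.5, 46.8, 42.8 and 43 CPM at 72 hpf, against 83.9, 103, 113 and 97.6 CPM at 48 hpf (−1.21 ± 0.12, adjusted p = 4.95e-14, edgeR). *top2a*, the topoisomerase of dividing cells, fell by 0.97 ± 0.12, *tpx2*, a spindle assembly factor, by 1.03 ± 0.13, and *RRM2*, a ribonucleotide reductase subunit, by 1.37 ± 0.17. The wider lists moved alike: 45 of 51 mitosis genes and 22 of 54 replication genes fell and 0 rose in either (medians −0.97 and −0.53). Ribosome biogenesis genes did not, with 0 lower and 1 higher of 38 tested.

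The 9 chromatin and RNA-binding genes had the smallest median fall, by 0.96 on the log2 scale. *hmga1a*, an architectural chromatin protein, had 523, 569, 511 and 504 CPM at 72 hpf, against 1004, 1096, 904 and 1058 CPM at 48 hpf (−0.95 ± 0.07, adjusted p = 8.68e-20, edgeR). *HNRNPAB*, an mRNA-binding protein, fell by 0.92 ± 0.08. Pigment cell genes were *MITF*, *gch2* and *aox5*, of which the last 2 serve pteridine pigment in yellow xanthophores. *gch2* fell by 1.06 ± 0.10 and *aox5* by 1.58 ± 0.23. The fast muscle genes *TNNT3* (ENSDARG00000030270) and *mybpc2b* fell by 1.17 ± 0.10 and 1.37 ± 0.14. Another *TNNT3* ID (ENSDARG00000068457), not among the genes chosen, was more abundant. It had 3631 to 6613 CPM over the 80 libraries, against 363 to 1612 CPM for the ID that fell. Its change between the ages is not given here. In the skeletal muscle list 7 genes fell and 9 rose of 30 tested.

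The other 44 genes had mixed or unknown roles, and 43 fell. Among them *si:ch73-21g5.7* had 9.63, 7.37, 7.21 and 10.9 CPM at 72 hpf, against 86.5, 86.9, 76.7 and 89.8 CPM at 48 hpf (−3.27 ± 0.17). *ABHD6*, a counterpart of a monoacylglycerol lipase, fell by 3.04 ± 0.17, *afp4* by 3.02 ± 0.27 and *apobb.2*, an apolipoprotein B of yolk lipoprotein, by 2.19 ± 0.21. *si:ch211-222l21.1* took the most counts of the 134 genes at 48 hpf, and had 1247, 1193, 1160 and 1286 CPM at 72 hpf, against 2628, 2491, 2805 and 2723 CPM at 48 hpf (−1.12 ± 0.08). The calls in controls of the genes checked one by one, all but *ect2*, were kept in every alternative fit and in every leave-out.

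The same genes fell in the exposed groups that the choice had not used. At 72 hpf against 48 hpf the number called lower was 133 in 8-MBaP 0.133 µM (11.6% of all genes), 134 in 8-MBaP 1.33 µM (12.4%) and 132 in 8-MBaP 13.3 µM (11.9%). It was 133 in 6-MBaP 1.33 µM (11.5%), 132 in 6-MBaP 13.3 µM (11.5%), 133 in BaP 1.33 µM (11.5%) and 133 in BaP 13.3 µM (12%). Their median log2 fold changes were −1.34, −1.41 and −1.39 in the 8-MBaP groups from low to high concentration, −1.32 and −1.37 in the 6-MBaP groups, and −1.36 and −1.46 in the BaP groups, and the all-gene medians lay between 0.01 and 0.05. The groups that chose the genes had medians of −1.395 (6-MBaP 0.133 µM) and −1.41 (BaP 0.133 µM), which are given as a description. No exposed group kept the genes at their 48 hpf level.

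**Figure D2:**
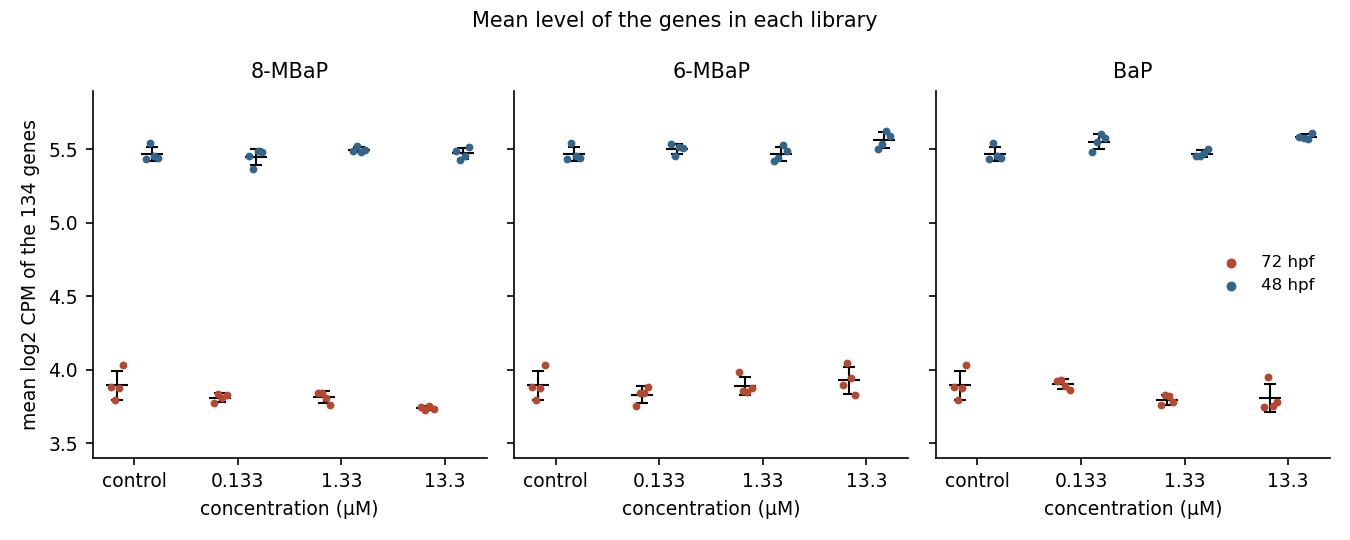
Mean log2 CPM of the 134 genes in each library (points), with the mean and SD of the 4 pools, against concentration for each compound, with 72 hpf left of 48 hpf and the same control libraries in every panel. All 40 libraries at 72 hpf lie between 3.72 and 4.04 and all 40 at 48 hpf between 5.37 and 5.63; the 0.133 µM groups of 6-MBaP and BaP chose the genes.

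The mean log2 CPM over the 134 genes was 3.88, 3.79, 3.87 and 4.03 in the control pools at 72 hpf, against 5.43, 5.54, 5.45 and 5.44 at 48 hpf. The 8-MBaP 13.3 µM pools at 72 hpf lay at 3.75, 3.72, 3.75 and 3.73, below all control pools of that age. In BaP 13.3 µM they lay at 3.75, 3.95, 3.75 and 3.78, so 3 pools lay below all controls and pool B lay among them. At 48 hpf the BaP 13.3 µM pools lay the other way, at 5.59, 5.58, 5.57 and 5.61, above all control pools of that age. These differences were small beside the gap between the ages, and no test was made on the mean. Pool B of BaP 13.3 µM and pool D of the controls also had the highest *he1.1* of their groups at 72 hpf, at 114 and 140 CPM.

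Against the controls of the same age few of the 134 genes were called. At 48 hpf 1 gene was called in 8-MBaP 0.133 µM (0.433% of all genes), 4 in 8-MBaP 1.33 µM (0.691%) and 7 in 8-MBaP 13.3 µM (1.54%). In 6-MBaP it was 0 at 1.33 µM (0%) and 2 at 13.3 µM (0.253%), and in BaP 0 at 1.33 µM (0.0843%) and 3 at 13.3 µM (0.343%). At 72 hpf 8-MBaP had 1 at 0.133 µM (0.277%), 3 at 1.33 µM (0.923%) and 13 at 13.3 µM (2.47%), of which 8 were lower and 5 higher. 6-MBaP had 0 at 1.33 µM (0.00543%) and 0 at 13.3 µM (0.0380%), and BaP had 0 at 1.33 µM (0.130%) and 0 at 13.3 µM (0.809%). Where 0 were called by edgeR, 14 genes in 6-MBaP 1.33 µM and 18 in BaP 1.33 µM had an unadjusted p under 0.05 at 48 hpf, and DESeq2 called 0 and 1. At 72 hpf the numbers were 14 and 11 in 6-MBaP at 1.33 and 13.3 µM and 17 and 22 in BaP at 1.33 and 13.3 µM, and DESeq2 called 0, 0, 1 and 0. However, DESeq2 gave no adjusted p at 72 hpf for 58 of the 134 genes in 6-MBaP 13.3 µM. It gave none for 68 in BaP 1.33 µM and 32 in BaP 13.3 µM, nor for 6 in BaP 1.33 µM at 48 hpf. Those genes could not be called by it. Unadjusted p under 0.05 was not counted over all genes, so those numbers have no background beside them. All these comparisons share the control libraries of their age. The 34 calls fell on 18 genes, and 116 genes were called in no exposure. In 25 of the 34 calls exposed and control pools did not overlap. Overlap was not counted over all genes called, so this describes the calls only. The median log2 difference of the 134 genes from control lay between −0.01 and 0.11 at 48 hpf and between −0.12 and 0.03 at 72 hpf.

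**Figure D3:**
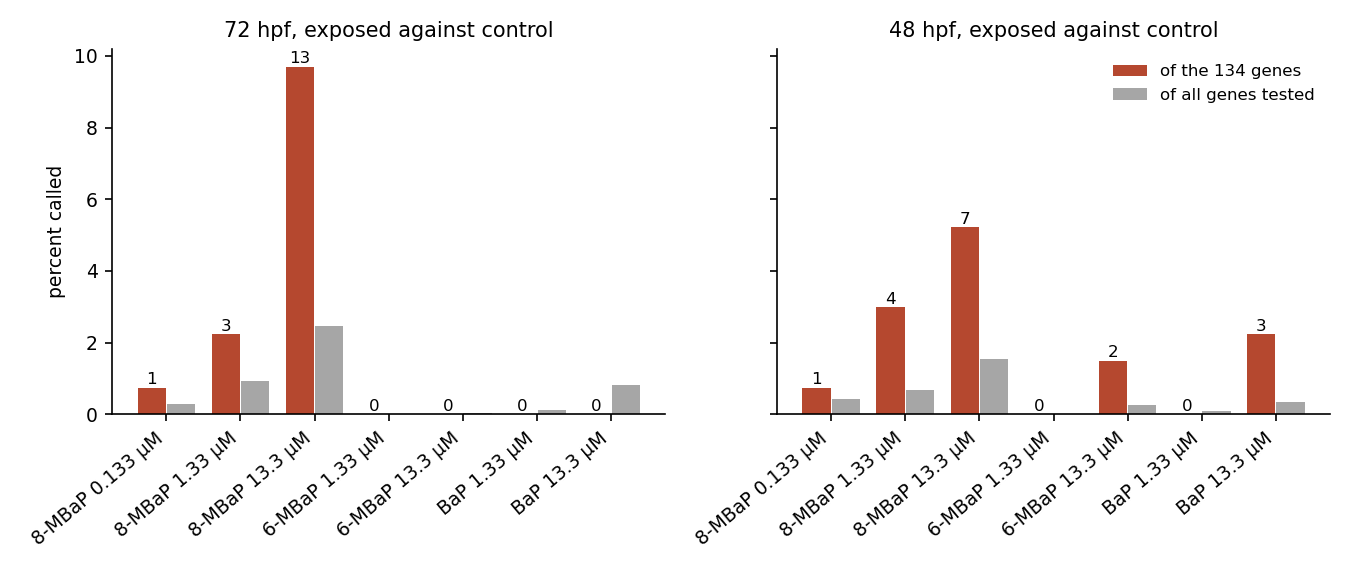
Percent of the 134 genes (red bars, with the number called above) and of all genes tested (gray bars) called against control by edgeR at an adjusted p at or under 0.05, in each exposure, at 72 hpf (left) and 48 hpf (right). The largest share is 9.70% (13 genes) in 8-MBaP 13.3 µM at 72 hpf, where 2.47% of all genes were called; 6-MBaP and BaP have 0 at 72 hpf. The 134 genes were chosen from 6773 with at least 10 CPM at 48 hpf. All genes tested at 72 hpf were 18423, so the gray bars include genes with fewer counts, which are harder to call.

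*ACP5* was the gene most often higher in exposed embryos at 48 hpf. It had 243, 144, 225 and 169 CPM in 8-MBaP 13.3 µM, 122, 140, 97.3 and 137 CPM in 6-MBaP 13.3 µM and 178, 196, 186 and 132 CPM in BaP 13.3 µM, against 66.7, 109, 44.9 and 91.2 CPM in controls. All pools of 8-MBaP and BaP were above all controls, and 1 pool of 6-MBaP lay among them. The log2 fold changes were 1.32 ± 0.16 in 8-MBaP (adjusted p = 1.02e-08, edgeR), 0.66 ± 0.16 in 6-MBaP (adjusted p = 0.0471) and 1.14 ± 0.16 in BaP (adjusted p = 2.35e-06). At 1.33 µM it was higher in 8-MBaP, with 109, 175, 138 and 123 CPM (0.80 ± 0.16, adjusted p = 0.00178). The calls in 8-MBaP and BaP held in every leave-out, and that in 6-MBaP 13.3 µM was lost without exposed pool A, B or D or control pool A or C (adjusted p up to 0.246) and with filterByExpr (0.0557). By 72 hpf *ACP5* had fallen to 5.34, 5.23, 3.4 and 4.88 CPM in 8-MBaP 13.3 µM, against 3.04, 1.64, 5.48 and 3.07 CPM in controls, and the groups overlapped.

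*nt5c2l1* was higher in 8-MBaP at both ages. At 48 hpf it had 26.9, 34.5, 36.3 and 35 CPM at 1.33 µM and 44.8, 30.1, 46.5 and 44.5 CPM at 13.3 µM, against 13.9, 20.5, 13.9 and 14.4 CPM in controls. At 72 hpf it had 18.6, 25.1, 19 and 14.4 CPM at 1.33 µM and 16.4, 17, 15.8 and 17.2 CPM at 13.3 µM, against 7.78, 9.69, 8.62 and 7.79 CPM in controls. No exposed pool overlapped the controls of its age. The log2 fold changes were 1.08 ± 0.19 and 1.401 ± 0.19 at 48 hpf and 1.19 ± 0.22 and 0.97 ± 0.22 at 72 hpf, at 1.33 and 13.3 µM, and all 4 calls held in every leave-out (adjusted p up to 0.0238, edgeR). In BaP 13.3 µM at 48 hpf it was also higher, with 23.8, 28.1, 24.9 and 33.6 CPM (0.81 ± 0.19, adjusted p = 0.0265), but this call was lost without exposed pool B or D or control pool A, C or D (adjusted p up to 0.177). In 6-MBaP 13.3 µM the difference was 0.15 ± 0.19 (adjusted p = 0.858).

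*lyz* was lower in exposed embryos at 48 hpf. It had 51.9, 73, 40.9 and 44.5 CPM in 8-MBaP 13.3 µM, 59.9, 61.7, 64 and 71.5 CPM in 6-MBaP 13.3 µM and 70.6, 88.2, 62.8 and 81.7 CPM in BaP 13.3 µM, against 77.2, 146, 112 and 94.5 CPM in controls. Pools of 8-MBaP and 6-MBaP lay below all controls and 2 pools of BaP lay among them. The log2 fold changes were −1.04 ± 0.13 (adjusted p = 2.04e-08, edgeR), −0.75 ± 0.13 (adjusted p = 0.000953) and −0.51 ± 0.13 (adjusted p = 0.0455). In 8-MBaP it was also lower at 0.133 µM (−0.55 ± 0.13, adjusted p = 0.0164) and 1.33 µM (−0.64 ± 0.13, adjusted p = 0.00138). The calls at 13.3 µM in both methylated compounds held in every leave-out. The call in BaP was lost without exposed pool A, C or D or control pool B or C (adjusted p up to 0.379), that in 8-MBaP 0.133 µM without exposed pool A or B or control pool B or C (up to 0.281) and that in 8-MBaP 1.33 µM without control pool B (0.0782). At 72 hpf *lyz* was not called in any exposure.

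**Figure D4:**
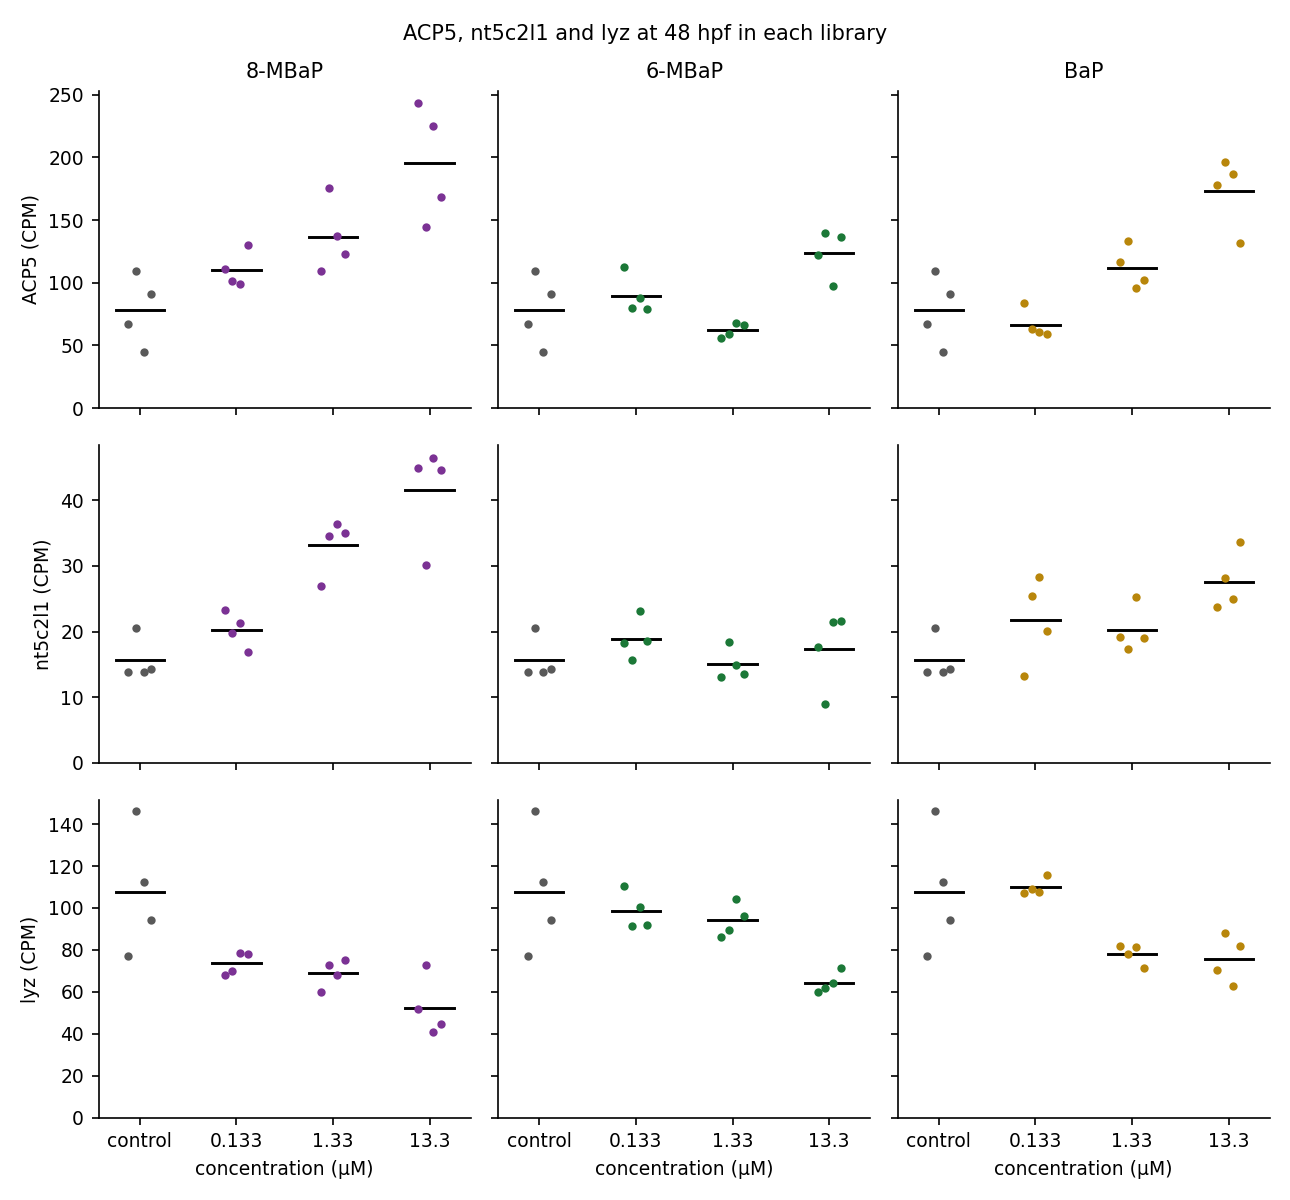
CPM of *ACP5*, *nt5c2l1* and *lyz* at 48 hpf in each library (points; bars are means of 4 pools) against concentration for each compound, with the same gray control libraries in every panel and axes from 0. *ACP5* reaches 144 to 243 CPM in 8-MBaP 13.3 µM, against 44.9 to 109 CPM in controls, and *nt5c2l1* 30.1 to 46.5 CPM against 13.9 to 20.5 CPM, while *lyz* is at 40.9 to 73 CPM against 77.2 to 146 CPM; the 0.133 µM groups of 6-MBaP and BaP chose the genes and were not tested.

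In 8-MBaP 13.3 µM at 48 hpf, 2 cathepsin L-like genes were already lower. *zgc:174855* had 39.2, 35.2, 14 and 27.3 CPM, against 62.2, 77.3, 69.5 and 57.8 CPM in controls (−1.21 ± 0.24, adjusted p = 0.00114, edgeR). *si:dkey-26g8.5* had 7.71, 13, 3.06 and 7.01 CPM, against 23.6, 18, 22.5 and 17.4 CPM in controls (−1.41 ± 0.31, adjusted p = 0.00417). Neither gene's exposed pools reached the controls, and the call of the first held in every leave-out, while that of the second was lost without exposed pool C (adjusted p = 0.0678). The remaining calls at 48 hpf were *sinhcaflas* (−0.45 ± 0.10, adjusted p = 0.00566), lost without exposed pool C (0.0734), and *zgc:174938* (−0.47 ± 0.13, adjusted p = 0.0309), lost without exposed pool C or D or control pool A or C (up to 0.191), both at 13.3 µM. In 8-MBaP 1.33 µM *aox5* was higher, at 16.4, 17.7, 17.7 and 17.8 CPM against 11, 12.1, 7.92 and 8.72 CPM in controls (0.80 ± 0.19, adjusted p = 0.012), a call lost without control pool C or D (up to 0.101).

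At 72 hpf the largest well-counted differences were in the hatching enzymes in 8-MBaP 13.3 µM. *he1.1* had 5.99, 13.9, 10.6 and 8.38 CPM there, against 70.8, 8.87, 39.6 and 140 CPM in controls. *he1.2* had 6.47, 16, 3.99 and 9.91 CPM, against 63, 4.91, 29.6 and 54.7 CPM in controls. In both genes control pool B lay among the exposed pools and the other 3 control pools lay above them. The log2 fold changes were −2.73 ± 0.53 for *he1.1* (adjusted p = 0.000375, edgeR) and −2.08 ± 0.52 for *he1.2* (adjusted p = 0.0126). The first held in every leave-out (adjusted p up to 0.0227, and −1.999 without control pool D), and the second was lost without exposed pool A or C or control pool A or D (up to 0.1). The third hatching gland gene, *PRDM1*, was not called. At 48 hpf neither enzyme was called in this exposure, and *he1.1* had 511, 576, 392 and 546 CPM, against 495, 441, 627 and 608 CPM in controls.

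The other groups at 72 hpf spanned a wide range. *he1.1* had 32.9, 25.6, 10.9 and 52.3 CPM in 8-MBaP 0.133 µM and 13.9, 42.5, 10.4 and 5.74 CPM in 8-MBaP 1.33 µM. It had 87.3, 56.2, 81.4 and 67 CPM in 6-MBaP 1.33 µM and 30.6, 85.1, 41.1 and 40.4 CPM in 6-MBaP 13.3 µM. In BaP it had 41.6, 78.8, 37.1 and 71.5 CPM at 1.33 µM and 7.72, 114, 28.1 and 13 CPM at 13.3 µM. All these groups overlapped the controls, and none of them was called. In BaP 13.3 µM pool B was far above the other 3, and the difference from control was −0.65 (95% interval −1.55 to 0.24).

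**Figure D5:**
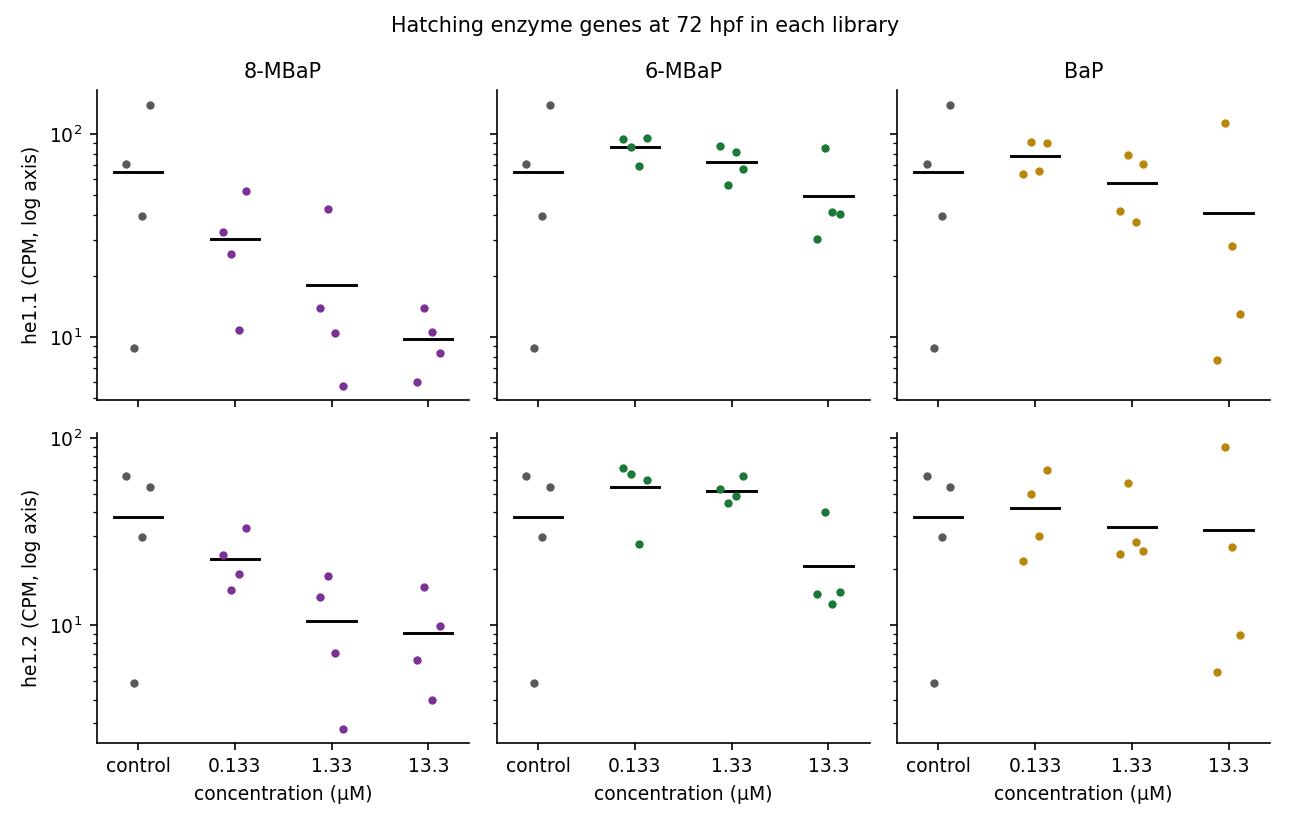
CPM of *he1.1* and *he1.2* at 72 hpf in each library on a log axis (points; bars are means of 4 pools) against concentration for each compound, with the same gray control libraries in every panel. Control pools of *he1.1* run from 8.87 to 140 CPM and the 8-MBaP 13.3 µM pools from 5.99 to 13.9 CPM; the 0.133 µM groups of 6-MBaP and BaP chose the genes and were not tested.

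The cathepsin L-like genes were near 0 in many libraries at 72 hpf. Over the 4 pools *zgc:174154* had 0 reads in 8-MBaP 0.133 µM and 37 in controls (95% exact counting interval of the ratio 0 to 0.114). It had 1 read in 8-MBaP 13.3 µM, a ratio to control of 0.0269 (95% exact counting interval 0.00066 to 0.160), and *si:dkey-269i1.4* had 2 reads there and 54 in controls (ratio 0.0369, interval 0.00436 to 0.140). These 3 differences were called (adjusted p = 0.0487, 0.0313 and 0.0374, edgeR). Most of the control reads were in pool D and, for *zgc:174154*, also in pool C, and the calls were lost in 6, 5 and 6 of the 8 leave-outs, control pool D among them (adjusted p up to 0.368, 0.239 and 0.42). With the replicate letter as a block both *zgc:174154* calls were lost (adjusted p = 0.0785 at 0.133 µM and 0.0504 at 13.3 µM), and in a fit of the exposed and control pools alone so was that at 0.133 µM (0.0544). The filter of filterByExpr removed *zgc:174154* at 72 hpf. Low counts were not confined to 8-MBaP. *zgc:174154* had 1 read in 6-MBaP 1.33 µM (ratio to control 0.0321, interval 0.00079 to 0.191) and 3 in BaP 1.33 µM (0.0820, 0.0162 to 0.259). At 13.3 µM it had 25 reads in 6-MBaP and 7 in BaP. *si:dkey-26g8.5* had 0 reads in BaP 13.3 µM and 14 in 6-MBaP 13.3 µM, against 18 in controls. No 6-MBaP or BaP difference was called. The intervals cover counting error only.

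*apobb.2* (ENSDARG00000075016) had 4.37, 3.33, 4.58 and 2.13 CPM in 8-MBaP 13.3 µM at 72 hpf, against 10.5, 9.69, 8.3 and 13.3 CPM in controls (−1.52 ± 0.28, adjusted p = 0.000197, edgeR). *alox12*, a lipoxygenase, had 14.4, 9.59, 12.2 and 10.1 CPM at 1.33 µM and 13.3, 8.56, 11.9 and 12.5 CPM at 13.3 µM, against 16.6, 21, 23.5 and 20.7 CPM in controls (−0.83 ± 0.17 and −0.82 ± 0.17). In both genes all exposed pools lay below all controls, and the calls held in every leave-out. *mybpc2b*, a fast muscle myosin-binding protein, had 26.3, 22, 30.7 and 20 CPM at 1.33 µM and 26.9, 27.6, 17 and 27.1 CPM at 13.3 µM, against 37.7, 36.2, 36.4 and 49.9 CPM in controls. Its differences of −0.70 ± 0.17 at both concentrations (adjusted p = 0.0127 and 0.00594) were lost without control pool D, and also without exposed pool B or D at 1.33 µM or C at 13.3 µM (up to 0.146).

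A total of 5 genes were higher in 8-MBaP 13.3 µM at 72 hpf, *nt5c2l1* and 4 others. *aox5* had 8.42, 6.97, 6.22 and 7.32 CPM, against 4.56, 2.18, 3.92 and 2.81 CPM in controls (1.12 ± 0.28, adjusted p = 0.0102, edgeR). *P4HA1*, the counterpart of a collagen prolyl hydroxylase, had 32.1, 48.3, 26.1 and 72.4 CPM, against 23.7, 32.3, 23.5 and 25.3 CPM in controls (0.77 ± 0.18, adjusted p = 0.00688). The groups overlapped in *P4HA1* and not in *aox5*. *POU2F2* had 11.8, 16.8, 18.8 and 14.5 CPM, against 8.62, 10.8, 8.62 and 7.92 CPM in controls, and *pou3f1* had 27, 23.8, 26.1 and 30.5 CPM, against 18.9, 20.1, 20.8 and 20.2 CPM in controls. Exposed pools of both factors lay above all controls, at log2 differences of 0.79 ± 0.21 (adjusted p = 0.0185) and 0.43 ± 0.12 (adjusted p = 0.0302). The call of *aox5* was lost without control pool B (0.0821), that of *P4HA1* without exposed pool D (0.275, at a difference of 0.44), that of *POU2F2* without exposed pool B or C or control pool A, C or D (up to 0.102) and that of *pou3f1* without exposed pool A or D or any control pool (up to 0.164), with no filter on low counts (0.13) and in a fit of the 8-MBaP 13.3 µM and control pools alone (0.0886). Of the lower genes *zgc:174938* (−0.74 ± 0.19, adjusted p = 0.0187) was lost without exposed pool B or C or control pool A or C (up to 0.114).

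The largest groups by role, apart from the genes of mixed or unknown role, had medians near control in 8-MBaP 13.3 µM at 72 hpf. Of the 12 Notch genes 0 were called and their median log2 difference was −0.11, of the 16 neural factors 1 was called (*pou3f1*, higher; median −0.08), of the 16 regional factors 1 (*POU2F2*, higher; median 0.02), and of the 16 cell division genes 0 (median −0.08). Over all genes tested the median was −0.0044 and 2.47% were called. Counts of 0 or 1 in groups this small cannot be told apart from that share. The remaining calls in this exposure, given above, were in smaller groups and in genes of mixed or unknown role. Those smaller groups were hatching gland, cathepsin L-like, muscle, pigment cell and red blood cell genes.

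The question whether exposure changed the size of the fall between the ages was tested as an interaction in 5 exposures. Only 1 gene was called, *he1.1* in 8-MBaP 13.3 µM, where the fall was 2.63 ± 0.55 larger on the log2 scale than in controls (adjusted p = 0.0121, edgeR, 0.0989% of all genes called). The call was lost without exposed pool A or D or control pool D at 72 hpf (adjusted p up to 0.235), and the interaction was −1.90 without the last of these. In 8-MBaP 0.133 µM (0% of all genes), 8-MBaP 1.33 µM (0.0677%), 6-MBaP 13.3 µM (0%) and BaP 13.3 µM (0.0104%) 0 of the 134 genes were called, with 9, 19, 10 and 26 genes at an unadjusted p under 0.05, and DESeq2 called 0, 3, 0 and 0. In 8-MBaP 1.33 µM DESeq2 gave no adjusted p for 56 of the 134 genes and called 51 of all genes. Here too unadjusted p under 0.05 was not counted over all genes. For *he1.1* the interval of the interaction was −1.87 to 0.08 in 6-MBaP 13.3 µM and −1.94 to 0.02 in BaP 13.3 µM.

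Compounds were compared at matched concentration and age in 8 pairs, 8-MBaP against 6-MBaP and against BaP at 1.33 and 13.3 µM, with p-values adjusted over all genes within each pair. Against 6-MBaP, 7 of the 134 genes were called at 1.33 µM at 48 hpf (0.506% of all genes) and 6 at 72 hpf (0.890%), and 7 at 13.3 µM at 48 hpf (0.731%) and 1 at 72 hpf (1.37%). Against BaP, 2 were called at 1.33 µM at 48 hpf (0.360%) and 1 at 72 hpf (0.923%), and 7 at 13.3 µM at 48 hpf (0.815%) and 3 at 72 hpf (0.814%). The 34 calls fell on 20 genes, and in 28 calls the pools of the compounds did not overlap, which was not counted over all genes called.

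*nt5c2l1* was higher in 8-MBaP than in 6-MBaP at 48 hpf by 1.14 ± 0.19 at 1.33 µM (adjusted p = 3.45e-05, edgeR) and 1.25 ± 0.18 at 13.3 µM (adjusted p = 1.93e-06), and at 72 hpf by 1.42 ± 0.23 at 1.33 µM (adjusted p = 3.89e-05). Against BaP it was higher at 1.33 µM at 72 hpf (1.23 ± 0.22, adjusted p = 0.000465), and at 13.3 µM the differences of 0.59 (95% interval 0.25 to 0.94) at 48 hpf and 0.63 (0.20 to 1.06) at 72 hpf were not called (adjusted p = 0.102 and 0.225). *ACP5* was higher in 8-MBaP than in 6-MBaP by 1.13 ± 0.16 at 1.33 µM (adjusted p = 1.46e-06) and by 0.66 ± 0.16 at 13.3 µM (adjusted p = 0.0153) at 48 hpf, the second lost without pool A or C of either compound (up to 0.162) and with DESeq2 (0.0701). Against BaP at 13.3 µM the *ACP5* difference at 48 hpf was 0.18 (interval −0.12 to 0.48, adjusted p = 0.743). The other calls of *nt5c2l1* and *ACP5* named here held in every leave-out.

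*si:dkey-26g8.5* was lower in 8-MBaP at 48 hpf than in 6-MBaP at 1.33 µM, with 10.7 ± 2.48 against 30.7 ± 14.1 CPM (mean ± SD, n = 4 pools each; −1.52 ± 0.29, adjusted p = 0.000866, edgeR). At 13.3 µM it had 7.70 ± 4.09 CPM in 8-MBaP, against 23.3 ± 4.48 CPM in 6-MBaP (−1.60 ± 0.31, adjusted p = 0.000819) and 25.7 ± 6.77 CPM in BaP (−1.75 ± 0.31, adjusted p = 0.000199). The pools did not overlap in any of the 3, and the call at 1.33 µM was lost without 6-MBaP pool D (0.0564). *aox5* was higher in 8-MBaP 1.33 µM at 48 hpf, at 17.4 ± 0.67 CPM, than in BaP 1.33 µM at 9.18 ± 0.45 CPM (0.92 ± 0.19, adjusted p = 0.0027), which held in every leave-out, and than in 6-MBaP 1.33 µM at 10.4 ± 1.78 CPM (0.74 ± 0.18, adjusted p = 0.0344), which was lost in 7 of 8.

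*he1.1* was lower in 8-MBaP than in 6-MBaP in all 4 comparisons and than in BaP in 2 of 4. At 48 hpf, where it was not called against control in any exposure tested, it had 421 ± 50.1 CPM in 8-MBaP 1.33 µM, against 647 ± 65.5 CPM in 6-MBaP (−0.62 ± 0.12, adjusted p = 0.00118, edgeR) and 613 ± 94.1 CPM in BaP (−0.54 ± 0.12, adjusted p = 0.0111), and 506 ± 80.6 CPM in 8-MBaP 13.3 µM, against 762 ± 127 CPM in 6-MBaP (−0.59 ± 0.12, adjusted p = 0.00257). At 72 hpf the difference from 6-MBaP was −1.962 ± 0.49 at 1.33 µM (adjusted p = 0.0248) and −2.33 ± 0.53 at 13.3 µM (adjusted p = 0.00583), and that from BaP at 13.3 µM was −2.08 ± 0.53 (adjusted p = 0.0329), but −0.72 without BaP pool B. The differences from BaP at 13.3 µM at 48 hpf, −0.40 (95% interval −0.63 to −0.16, adjusted p = 0.118), and at 1.33 µM at 72 hpf, −1.61 (−2.56 to −0.65, adjusted p = 0.105), were not called. Pools of 8-MBaP lay below all pools of the other compound in each called comparison except that with BaP at 13.3 µM at 72 hpf. There BaP pool A, at 7.72 CPM, and BaP pool D lay among the 8-MBaP pools. That call was lost without 8-MBaP pool A, C or D or BaP pool B (up to 0.799), with the replicate block (0.0502), with filterByExpr (0.0511) and with DESeq2 (0.0557). Of the others, the first call at 48 hpf held in every leave-out, the difference from 6-MBaP at 72 hpf was lost at 13.3 µM without 6-MBaP pool B (0.0736) and at 1.33 µM without 8-MBaP pool A, C or D or 6-MBaP pool A or C (up to 0.149) and with DESeq2 (0.0824), and the 48 hpf differences were lost from BaP without pool B or D of 8-MBaP or A or D of BaP (up to 0.158) and from 6-MBaP at 13.3 µM without 8-MBaP pool C or 6-MBaP pool A (up to 0.0578).

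The other calls between the compounds were mostly lower levels in 8-MBaP. At 48 hpf *zgc:174855* had 28.9 ± 11.1 CPM in 8-MBaP 13.3 µM, against 63.0 ± 4.37 CPM in 6-MBaP 13.3 µM (−1.13 ± 0.24, adjusted p = 0.00529, edgeR) and 57.5 ± 20.3 CPM in BaP 13.3 µM (−0.996 ± 0.24, adjusted p = 0.0254). Against BaP 13.3 µM at 48 hpf 8-MBaP was also lower in *HBE1* (ENSDARG00000115405), with 382 ± 79.9 against 653 ± 120 CPM (−0.77 ± 0.16, adjusted p = 0.0052), and in *lyz*, *he1.2*, *zgc:174154* and *dlgap5*, a mitotic spindle gene. Against 6-MBaP it was lower in *mybpc2b* at 13.3 µM at 48 hpf, in ENSDARG00000039173 at 1.33 µM at 48 hpf, and in *he1.2*, *alox12* and *si:ch211-222l21.1* at 1.33 µM at 72 hpf, and lower than BaP in *apobb.2* at 13.3 µM at 72 hpf. *he1.2* had 10.6 ± 6.94 CPM in 8-MBaP 1.33 µM at 72 hpf, against 52.4 ± 7.47 CPM in 6-MBaP 1.33 µM (−2.29 ± 0.51, adjusted p = 0.00704). Higher levels in 8-MBaP were called in *mta2* at 1.33 µM and *gch2* at 13.3 µM at 48 hpf and in *alas2* at 1.33 µM at 72 hpf, all against 6-MBaP, and in *P4HA1* at 13.3 µM at 72 hpf against BaP. *gch2* had 502 ± 32.8 CPM in 8-MBaP 13.3 µM, against 391 ± 29.2 CPM in 6-MBaP 13.3 µM (0.36 ± 0.08, adjusted p = 0.00755). Each of these calls was lost in at least 1 leave-out, with adjusted p up to between 0.0570 for *gch2* and 0.354 for *P4HA1*. In other fits *zgc:174855* against BaP was lost with DESeq2 (0.0597), *he1.2* against BaP with DESeq2 (0.0683) and filterByExpr (0.0564), and *zgc:174154* with DESeq2 (0.0994) and filterByExpr (0.0605). *dlgap5* was lost with the replicate block (0.0514) and in a fit of the compared pools alone (0.113), *mta2* in such a fit (0.0642), and ENSDARG00000039173 with DESeq2 (0.177) and filterByExpr (0.0632).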

How the data were processed

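Messenger RNA was measured by BRB-seq in 80 pools of whole zebrafish embryos. The authors deposited unnormalized counts of reads per Ensembl gene ID, made by the sequencing company that mapped and demultiplexed the reads. The aligner, genome build and use of molecular identifiers are not given in the sources used here. All 80 columns were matched to samples by their titles (0 columns were not used), and no library pair held identical counts. Total counts ran from 4838752 to 8779891 per library.

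Genes that reached 5 reads in 2 or more libraries were tested with edgeR 4.0.16 (R 4.3.3, limma 3.58.1) by a quasi-likelihood test with TMM scaling, in 1 fit of the 40 libraries of an age (17794 genes at 48 hpf, 18423 at 72 hpf) or of all 80 (19211 genes) for differences between ages and their interaction with exposure. Those fits also held the 16 libraries that chose the 134 genes, whose spread entered the dispersion estimate. All 134 genes passed the filter in each fit. P-values were adjusted over all genes tested (Benjamini-Hochberg), and a call is an adjusted p at or under 0.05. Values in CPM are counts scaled to a TMM-adjusted library total of 1000000 (CPM), errors are SE from the fit (the 95% interval is 1.96 SE) or SD over pools, and mean log2 CPM used a prior count of 2. Intervals of read ratios (exact, 95%) cover counting error only. The sources do not say whether pools came from separate clutches, so p-values measure only the spread between these pools. The fits were also run on simulated counts that had the same dispersion in all genes and changes only in better-counted genes. That run does not cover genes near 0 reads or with widely spread pools.

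The members and gene lists were chosen with earlier results of these data known. Of the 134 genes, 90 carried a zebrafish symbol, 43 only the symbol of a human counterpart and 1 neither, and 83 were found by symbol in RefSeq (GRCz12tu), used only for names and neighbors. Genes named were the 12 largest falls in controls (at least 20 counts per 48 hpf library and no overlap), the 10 most abundant, those called against control or in the interaction, the 3 on either side of the limit of the choice, up to 4 of each list, and up to 5 of those called between compounds, the remaining calls being listed in full. *dlb*, *neurog1*, *foxn4* and other members named by role were chosen after their values were seen.

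Alternatives were DESeq2 1.42.0, relative log expression (RLE) scaling, no filter, filterByExpr, fits of the compared groups alone, other rules for the members, the replicate letter as a block, and leaving out each pool. After seeing the data, the set without the *HBE1* IDs was added, and the 79-library fits were given the dispersion trend of the 80-library fit. Whether a letter pairs pools was checked over 28 comparisons of groups. In 0 of them were all 4 correlations of deviations over 0.1 (range −0.0566 to 0.0627), so the letters were not treated as pairs.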

Additional observations from a re-analysis of the deposited data

Results flagged for a closer look

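In groups of 4 pools, a pool was picked out when its gap to the nearest of the other 3 took nearly all of the group's range (Dixon's ratio above its 95% critical value). Of 139 groups of printed values checked, 12 had such a pool, and chance alone gives about 1 in 20. In 7 of them it was pool B. The mean log2 CPM of the 134 genes in BaP 13.3 µM at 72 hpf was 3.953 in pool B, against 3.749 to 3.777 in the other pools. *he1.2* at 72 hpf was 40.448 CPM in pool B of 6-MBaP 13.3 µM (others 12.943 to 14.953) and 57.594 CPM in pool B of BaP 1.33 µM (others 23.928 to 27.944). *nt5c2l1* at 48 hpf was 30.149 CPM in pool B of 8-MBaP 13.3 µM (others 44.521 to 46.451) and 20.533 CPM in pool B of the controls (others 13.881 to 14.354). *zgc:174154* was 0.158 CPM in pool B of 8-MBaP 13.3 µM at 72 hpf (the others held 0 reads) and 40.734 CPM in control pool B at 48 hpf (others 13.373 to 15.973). The first of these groups held 1 read in all, so whichever pool held it was bound to be picked out.

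Among the other pools, *si:dkey-26g8.5* was 2.044 CPM in control pool D at 72 hpf (others 0 to 0.169). *mybpc2b* at 72 hpf was 17.022 CPM in pool C of 8-MBaP 13.3 µM (others 26.873 to 27.582) and 49.945 CPM in control pool D (others 36.171 to 37.691). At 48 hpf in controls *notch3* was 98.119 CPM in pool A (others 120.468 to 122.534) and *neurog1* was 9.15 CPM in pool C (others 12.36 to 12.719).

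The difference between the ages differed between 8-MBaP 13.3 µM and control embryos in *he1.1*, with an interaction of −2.6337 on the log2 scale (adjusted p = 0.0121, edgeR). All 4 pools of 8-MBaP 13.3 µM at 72 hpf were below 3 of the 4 control pools. The interaction ran from −3.0015 to −1.90 over the 16 leave-outs and was called in 13 of them.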

How the results depend on the processing

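The counts of genes lower at 72 than at 48 hpf (132 to 134 of 134) moved by no more than 1.5 times under any alternative. In controls the count ran from 130 to 132 over the leave-outs. No sign was reversed in any result computed again. Counts of calls against control and between compounds are small and moved with the settings as follows. The cause was not tested, other than that fits of only the compared groups and filters hold fewer libraries or genes. For alternative fits other than DESeq2, calls over all genes were not counted. A change in these genes cannot there be told apart from one over all genes. The cathepsin L-like genes had few reads per library at 72 hpf, and no alternative varied the depth. A pseudocount of 0.5 in the choice of the genes, and the set without the *HBE1* IDs (131 genes), moved no count by over 1.5 times.

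With DESeq2 the number called against control at 48 hpf was 2 (8-MBaP 0.133 µM, 1 by edgeR), 12 (8-MBaP 13.3 µM, 7), 5 (6-MBaP 13.3 µM, 2), 1 (BaP 1.33 µM, 0) and 5 (BaP 13.3 µM, 3), at 72 hpf 0 (8-MBaP 0.133 µM, 1) and 1 (BaP 1.33 µM, 0), and between compounds 4 (8-MBaP against BaP 1.33 µM at 48 hpf, 2), 5 (against 6-MBaP 13.3 µM at 72 hpf, 1) and 5 (against BaP 1.33 µM at 72 hpf, 1). Over all genes DESeq2 called 152, 398, 140, 57 and 92 in these exposures at 48 hpf (77, 274, 45, 15 and 61 by edgeR). At 72 hpf it called 61 and 50 (51 and 24 by edgeR). Between these compounds, in the same order, it called 68, 325 and 276 (64, 252 and 170 by edgeR). It called 3 interactions in 8-MBaP 1.33 µM (0 by edgeR).

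With no filter on low counts more genes were called. At 48 hpf the number was 9, 11 and 19 in 8-MBaP from low to high concentration, 8 in 6-MBaP 13.3 µM, and 5 and 13 in BaP at 1.33 and 13.3 µM. At 72 hpf it was 4 and 14 in 8-MBaP at 0.133 and 1.33 µM, 1 and 3 in 6-MBaP and 1 and 3 in BaP at 1.33 and 13.3 µM. Of 8-MBaP against 6-MBaP it was 11 and 13 at 48 hpf and 15 and 13 at 72 hpf (1.33 and 13.3 µM), and against BaP 8 and 15 at 48 hpf and 8 and 6 at 72 hpf. Interactions numbered 5, 8 and 7 in 8-MBaP from low to high, 5 in 6-MBaP 13.3 µM and 7 in BaP 13.3 µM.

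With filterByExpr the number was 1 in 6-MBaP 13.3 µM at 48 hpf, 0 in 8-MBaP 0.133 µM at 72 hpf, and 2 each for 8-MBaP against 6-MBaP 13.3 µM and against BaP 1.33 µM at 72 hpf. With the letter as a replicate block it was 5 in BaP 13.3 µM at 48 hpf and, at 72 hpf, 0 and 5 in 8-MBaP at 0.133 and 1.33 µM and 2 against BaP 1.33 µM. The block moved no other count by over 1.5 times. With RLE scaling 2 genes were called against BaP 1.33 µM at 72 hpf. In fits of the compared groups alone the number was 2 and 10 in 8-MBaP at 0.133 and 1.33 µM, 2 and 7 in BaP at 1.33 and 13.3 µM and 6 and 11 for 8-MBaP against BaP at 48 hpf. At 72 hpf it was 0 and 11 in 8-MBaP at 0.133 and 1.33 µM, 1 in BaP 13.3 µM, 13 and 6 against 6-MBaP and 7 and 5 against BaP at 1.33 and 13.3 µM, and interactions numbered 2 in 8-MBaP at 1.33 and at 13.3 µM.

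Leaving out the symbols before taking the 150 gave 150 genes (134 shared) and 2 calls against BaP 1.33 µM at 72 hpf. Choosing at 20 CPM or more gave 134 genes (102 shared), and at 72 hpf 5 calls in 8-MBaP 1.33 µM and 4 each against 6-MBaP 13.3 µM and BaP 1.33 µM.

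Over the leave-outs, calls at 48 hpf ran from 0 to 3 (8-MBaP 0.133 µM), 4 to 9 (8-MBaP 13.3 µM), 1 to 3 (6-MBaP 13.3 µM), 0 to 1 (BaP 1.33 µM) and 1 to 3 (BaP 13.3 µM). Against 6-MBaP they ran from 3 to 5 (1.33 µM) and 3 to 11 (13.3 µM), and against BaP from 1 to 3 and 2 to 6. At 72 hpf they ran from 0 to 1, 2 to 7 and 7 to 12 in 8-MBaP and 0 to 1 in BaP 13.3 µM, from 3 to 6 and 1 to 4 against 6-MBaP, and from 1 to 2 and 0 to 4 against BaP. Interactions ran from 0 to 1 in 8-MBaP at 1.33 and 13.3 µM and in BaP 13.3 µM.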

Other observations

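The part of their own 48 hpf level that the 134 genes kept at 72 hpf is given by group, as a description with no test. The number with less than 50% left was 122, 117 and 124 in 8-MBaP from low to high concentration, 111 and 116 in 6-MBaP and 119 and 121 in BaP at 1.33 and 13.3 µM, against 110 in controls. With less than 10% left there were 10, 11 and 12 genes in 8-MBaP, 6 and 9 in 6-MBaP and 9 and 11 in BaP, against 5 in controls. At less than 25% left the order did not hold, with 23, 23 and 28 genes in 8-MBaP, 21 and 22 in 6-MBaP and 25 and 29 in BaP, against 23 in controls. Genes below these cut-offs were not counted over all genes, so the numbers have no background beside them. Falls with no overlap between the pools of the ages held for 11.1 to 12.1% of all 19211 genes in these exposed groups. In controls they held for 9.96%. Among the 134 genes such falls did not differ in this way, with 131 in controls and 127 (6-MBaP 13.3 µM) to 132 in these exposed groups.

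Beyond the gene groups given above, 32 of 42 tested genes of a list of embryonic RNA-binding and chromatin factors were lower at 72 hpf in controls and 1 was higher (median log2 fold change −0.66), and 3 of 14 pluripotency and germline genes were lower and 0 higher (median −0.77). Of the first list 4 genes are among the 134. Lens genes moved the other way, with 27 of 48 higher and 3 lower (median 0.47), and 0 of them are among the 134. In 8-MBaP 13.3 µM at 72 hpf 9 of 14 tested genes of an AHR battery list were higher and 0 lower than in controls (median 1.16), and none of that list is among the 134.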
